A study of Mus musculus with 6 samples.

Results

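Transcripts of 10 cathepsins, the proteases Ctsa, Ctsb, Ctsc, Ctsd, Ctsf, Ctsh, Ctsk, Ctsl, Ctss and Ctsz, were examined in mouse frontal cortex. They were found by exact match of the gene symbol, which picked 10 of the 33000 genes in the count table, and all 10 were among the 15341 genes that passed the filter on low counts. The libraries were made with TruSeq, the Illumina protocol for mRNA, from 3 WT C57BL/6 mice and 3 homozygous GFAP-IL6 mice on the same strain, all aged 3 months, and each library came from a separate mouse. In the GFAP-IL6 mouse the promoter of Gfap, an astrocyte gene, drives the inflammatory cytokine IL6. In the study they served to judge the 3’Pool-seq protocol, and the question asked here is which cathepsin transcripts differed between the genotypes.

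Cathepsins are proteases that act mainly inside lysosomes. Most are made as inactive precursors, carried to the lysosome by mannose 6-phosphate receptors and activated there by cleavage at low pH, and those of the cysteine class are held in check by cystatins. Ctsb, Ctsc, Ctsf, Ctsh, Ctsk, Ctsl, Ctss and Ctsz are cysteine proteases, Ctsd is an aspartic protease and Ctsa is a serine carboxypeptidase. In the brain, neurons and glia use cathepsins for protein turnover, and microglia, the resident macrophages, are rich in several of them, Ctss in particular.

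The libraries held between 7559524 and 16877001 counts, and every GFAP-IL6 library was shallower than every WT library. The lowest count of any of the 10 cathepsins in any library was 28, for Ctsk, well above the floor of 3 counts. Levels of single genes are given in CPM, that is, relative to the library total after TMM scaling, and 3 counts were worth 0.179 to 0.396 CPM. Il6 itself was counted 0, 2 and 0 times in WT replicates 1 to 3 and 12, 10 and 24 times in GFAP-IL6 replicates 1 to 3, so the groups were apart as labelled. Neuron and cortical neuron markers were present in all libraries. WT replicate 2 held the highest levels of striatum markers, with 350 counts of Drd1 against 96 and 144 in the other WT libraries. WT replicate 3 held 8766 counts of the choroid plexus gene Ttr against 15 and 187 in the other WT libraries. The summed level of choroid plexus markers also varied in GFAP-IL6, from 3.57 to 58.6 CPM, against 3.13 to 601 CPM in WT. The main count of cathepsins is therefore also given without WT replicate 2 and without WT replicate 3.

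Of the 10 cathepsins, 6 were higher in GFAP-IL6 at an adjusted p under 0.05 (edgeR, Benjamini-Hochberg over all genes tested), 0 were lower and 4 did not pass. Over all genes tested, 2.65% were called higher and 0.209% lower by the same rule. Ctss, Ctsc, Ctsh, Ctsz, Ctsd and Ctsl rose, in the order of their fold change, and Ctsa, Ctsb, Ctsf and Ctsk did not pass the test. With a log2 fold change over 1 also required, 3 remained, Ctss, Ctsc and Ctsh, against 1.36% of all genes. In CPM, 7 cathepsins had all GFAP-IL6 libraries above all WT libraries and 0 had all of them below, whereas 13.8% of all genes lay wholly above and 12.7% wholly below. The median log2 fold change was 0.45 over the 10 cathepsins and -0.0038 over all genes tested. Without WT replicate 2 the count higher was 6, and without WT replicate 3 it was 5, as Ctsl was lost. At an unadjusted p under 0.05, edgeR gave 7 cathepsins higher and 0 lower, and the share of all genes at that threshold was not computed. DESeq2 called 6 cathepsins higher and 0 lower after adjustment, beside 416 higher and 98 lower of 22617 genes with a p-value. That is a wider set than the 15341 genes tested with edgeR, so the shares called are not directly comparable.

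**Figure D1:**
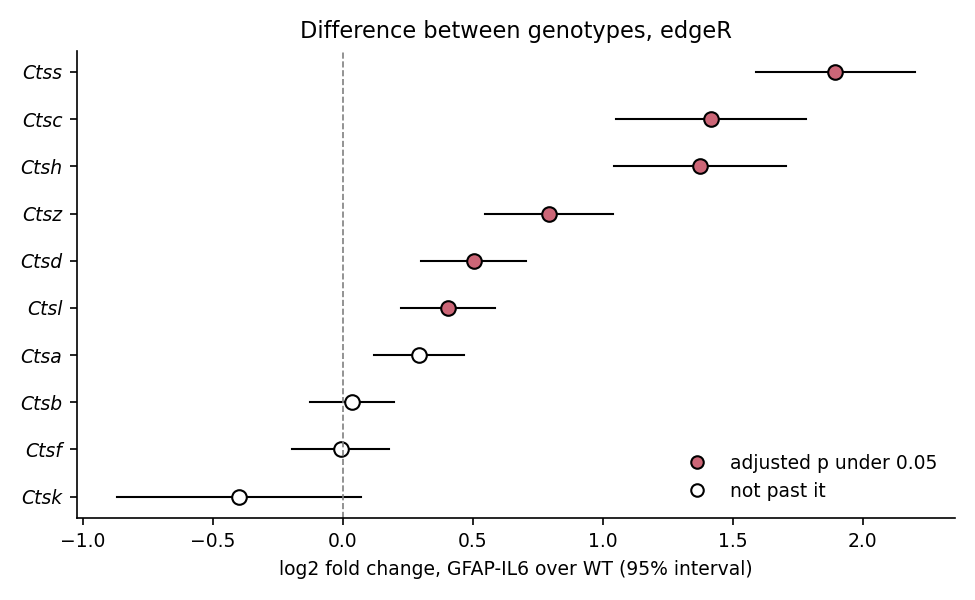
Log2 fold change of GFAP-IL6 over WT for each cathepsin from edgeR (points, 3 libraries a group) with its 95% interval (lines). Filled points passed an adjusted p of 0.05. The values run from 1.90 for Ctss to -0.40 for Ctsk, and only the intervals of Ctsb, Ctsf and Ctsk include 0.

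Ctss had the largest fold change of the 10. It encodes cathepsin S, which cleaves the invariant chain during antigen presentation and stays active at neutral pH (ENSMUSG00000038642.8, chr3:95526786-95556403, plus strand, GRCm38). It had 45.0, 72.4 and 54.0 CPM in WT replicates 1 to 3 and 204, 206 and 229 CPM in GFAP-IL6 replicates 1 to 3. The lowest GFAP-IL6 library was well above the highest WT library, which was replicate 2. The mean rose from 57.1 ± 13.97 to 213 ± 13.9 CPM (SD, n = 3 each), a log2 fold change of 1.90 ± 0.14 (SE) or 3.72-fold (95% interval 3.01 to 4.60), with an edgeR adjusted p of 7.45e-06. Among all genes tested it ranked 18 by adjusted p. The WT mice differed more than counting alone gives, with a coefficient of variation of 24.5% against 3.44% expected from the counts.

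Ctsc and Ctsh followed with similar fold changes. Ctsc encodes cathepsin C, the dipeptidyl peptidase that activates granule serine proteases (ENSMUSG00000030560.14, chr7:88278085-88310888, plus strand). It had 4.61, 7.39 and 6.77 CPM in the WT libraries and 15.1, 18.1 and 17.9 CPM in the GFAP-IL6 libraries, with no overlap. Ctsc thus had a log2 fold change of 1.42 ± 0.17 (SE), or 2.67-fold (95% interval 2.07 to 3.44), with an edgeR adjusted p of 0.000383. Ctsh encodes cathepsin H, an aminopeptidase (ENSMUSG00000032359.12, chr9:90054152-90076089, plus strand). Its levels were 8.70, 12.9 and 9.28 CPM in WT and 23.7, 27.6 and 29.9 CPM in GFAP-IL6, again with all GFAP-IL6 libraries higher. The log2 fold change of Ctsh was 1.38 ± 0.15 (SE), or 2.59-fold (95% interval 2.06 to 3.26), with an edgeR adjusted p of 0.000231. As for Ctss, WT replicate 2 was the highest WT library for both genes.

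Ctsz, Ctsd and Ctsl rose by less than 2-fold. Ctsz encodes cathepsin Z, a carboxypeptidase (ENSMUSG00000016256.10, chr2:174427493-174439039, minus strand). It had 27.6, 31.5 and 28.6 CPM in WT and 45.4, 46.9 and 60.0 CPM in GFAP-IL6, where replicate 3 stood above the other two. Ctsz had a log2 fold change of 0.79 ± 0.11 (SE), or 1.73-fold (95% interval 1.46 to 2.05), with an edgeR adjusted p of 0.00142. Ctss, Ctsc, Ctsh and Ctsz were past the threshold in all 15 alternative fits.

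Ctsd encodes cathepsin D, the main aspartic protease of the lysosome (ENSMUSG00000007891.13, chr7:142375911-142388038, minus strand). It had 284, 327 and 341 CPM in the WT libraries and 419, 438 and 493 CPM in the GFAP-IL6 libraries. The groups did not overlap, and GFAP-IL6 replicate 3 was the highest. The log2 fold change of Ctsd was 0.50 ± 0.09 (SE), or 1.42-fold (95% interval 1.23 to 1.63), with an edgeR adjusted p of 0.00973, and the call was lost without GFAP-IL6 replicate 3 (edgeR adjusted p = 0.0791). In GENCODE M21, 34.4% of the exon bases of Ctsd are shared on the same strand with Gm49369, a gene that has no row in the count table.

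Ctsl encodes cathepsin L, an endopeptidase of broad specificity (ENSMUSG00000021477.8, chr13:64359337-64370890, minus strand). Its levels were 71.2, 81.4 and 74.7 CPM in WT and 96.5, 101 and 104 CPM in GFAP-IL6. The groups did not overlap, and the GFAP-IL6 mean was higher by 0.41 ± 0.08 (SE) on the log2 scale or 1.32-fold (95% interval 1.17 to 1.502), with an edgeR adjusted p of 0.0187. This was the weakest of the 6 calls. It was lost without WT replicate 3 and without each GFAP-IL6 library in turn, with edgeR adjusted p of 0.0710 without WT replicate 3 and of 0.0596, 0.0812 and 0.118 without GFAP-IL6 replicates 1, 2 and 3.

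Ctsa, Ctsb, Ctsf and Ctsk did not pass the test. Ctsa encodes cathepsin A, which besides its peptidase activity protects lysosomal beta-galactosidase and neuraminidase (ENSMUSG00000017760.13, chr2:164832873-164841032, plus strand). It had 95.6, 103 and 108 CPM in WT and 122, 125 and 129 CPM in GFAP-IL6, so the groups did not overlap. The log2 fold change of Ctsa was 0.29 ± 0.08 (SE), or 1.23-fold (95% interval 1.09 to 1.38), with an edgeR adjusted p of 0.0768.

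Ctsb encodes cathepsin B, an abundant cysteine protease of neurons and glia (ENSMUSG00000021939.7, chr14:63122462-63145923, plus strand). It had 620, 658 and 651 CPM in WT and 637, 688 and 653 CPM in GFAP-IL6, and the groups overlapped. The log2 fold change of Ctsb was 0.04 ± 0.07 (SE) with a 95% interval from -0.13 to 0.20 and an edgeR adjusted p of 0.820. Ctsb had the highest CPM of the 10 in every library.

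Ctsf encodes cathepsin F, a cysteine protease linked to a form of neuronal ceroid lipofuscinosis (ENSMUSG00000083282.2, chr19:4855130-4860918, plus strand). It had 54.5, 57.4 and 48.7 CPM in WT and 52.8, 54.7 and 52.2 CPM in GFAP-IL6, and all GFAP-IL6 values lay within the WT range. For Ctsf the log2 fold change was -0.01 ± 0.09 (SE) with a 95% interval from -0.19 to 0.18 and an edgeR adjusted p of 0.969, and its sign changed between fits.

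Ctsk encodes cathepsin K, the collagen-degrading protease of osteoclasts (ENSMUSG00000028111.4, chr3:95499256-95509362, plus strand). Its levels were 3.57, 5.30 and 4.76 CPM in WT and 3.13, 3.69 and 3.68 CPM in GFAP-IL6, so the groups overlapped. For Ctsk the fitted log2 fold change was -0.40 ± 0.22 (SE) with a 95% interval from -0.87 to 0.07 and an edgeR adjusted p of 0.315. Ctsk and Ctss are neighbours on chromosome 3, on the same strand, with 17423 bases between them. The fitted value of Ctsk was the lowest of the 10, and it did not pass the test.

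Some exons of these genes overlap genes on the opposite strand, and the methods do not state whether counting used the strand. This held for 17.4% of the exon bases of Ctsa, shared with Pltp and Neurl2, for 12.8% of those of Ctsb, shared with Fdft1, and for 26.8% of those of Ctsl. The edgeR log2 fold changes of these partners were 0.24 for Pltp, 0.19 for Neurl2 and -0.10 for Fdft1, with adjusted p of 0.219, 0.651 and 0.496. The partners of Ctsl, Gm47123 and Gm49230, have no row in the table. Ctss, Ctsc, Ctsh, Ctsf and Ctsk share no exon bases with another gene.

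Promoter sequences are shown for the genes whose 250 bases before the start held a match to 1 of 4 motifs, because factors that bind them, or their genes, were measured in the same libraries. The motifs are the CLEAR element bound by TFEB (TCACGTGA), an ISRE-like element bound by interferon regulatory factors (GAAANNGAAA), the GAS element bound by STAT3 (TTCNNNGAA) and the PU.1 motif (GAGGAAGT, PU.1 being the product of Spi1). RefSeq promoters on GRCm38.p6 were at hand for 8 of the 10 cathepsins, not for Ctsb and Ctsh, and both strands were searched. Capitals mark the matches.
Ctss, chr3:95526636-95526785, plus strand, ISRE: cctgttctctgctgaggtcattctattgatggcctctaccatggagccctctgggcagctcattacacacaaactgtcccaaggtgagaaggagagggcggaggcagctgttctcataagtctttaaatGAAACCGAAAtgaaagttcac
Ctsc, chr7:88277835-88277984, plus strand, GAS and then PU.1 on the minus strand: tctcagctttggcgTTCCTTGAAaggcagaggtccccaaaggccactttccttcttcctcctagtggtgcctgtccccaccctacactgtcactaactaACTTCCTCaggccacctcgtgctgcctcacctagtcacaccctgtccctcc
Ctsd, chr7:142387908-142387937, minus strand, CLEAR: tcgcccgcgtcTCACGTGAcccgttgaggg
Ctsa, chr2:164833743-164833772, plus strand, CLEAR: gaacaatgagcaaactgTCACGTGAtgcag

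The match in Ctss lay 21 to 12 bases before the start, and 2.98% of 32851 promoters held this motif. In Ctsc the GAS match lay 236 to 228 bases and the PU.1 match 151 to 144 bases before the start, with 7.02% and 2.44% of promoters holding these motifs. CLEAR was found in 0.785% of promoters, and its matches lay 99 to 92 bases before the start of Ctsd and 13 to 6 bases before the downstream of 2 RefSeq starts of Ctsa, both in exon sequence annotated as untranslated. No match was found in the windows of Ctsf, Ctsk, Ctsl and Ctsz. A match describes the letters of a window and is not evidence of binding.

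Among the transcription factor genes, 3 of the 6 tested rose and 0 fell, with a median log2 fold change of 0.44. Spi1, the macrophage lineage factor, had 2.44 ± 0.261 CPM in WT and 7.12 ± 1.21 CPM in GFAP-IL6, with a log2 fold change of 1.54 ± 0.20 (edgeR adjusted p = 0.000908). Irf8, an interferon regulatory factor of microglia, rose by 1.40 ± 0.17 on the log2 scale (edgeR adjusted p = 0.000389). Stat3, which transmits the IL6 signal, rose by 0.80 ± 0.11 on the log2 scale (edgeR adjusted p = 0.000858). Tfeb, the regulator of lysosomal genes, had a log2 fold change of -0.02 ± 0.20 (edgeR adjusted p = 0.963), and the related Tfe3 and Mitf had 0.08 and -0.14.

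To compare levels between genes, counts were divided by gene length and scaled to TPM, which is again relative to a common total. In WT, Ctsd and Ctsb were the most abundant, with 414 ± 32.2 and 377 ± 4.85 TPM (SD, n = 3 each), and their libraries overlapped. Ctss at 116 ± 24.99 TPM and Ctsl at 107 ± 4.11 TPM came next and overlapped, as did Ctsa at 77.2 ± 3.88 TPM and Ctsf at 75.3 ± 5.72 TPM. Ctsz had 56.3 ± 2.31 TPM and Ctsh 17.6 ± 3.40 TPM, each apart from its neighbours in the order. Ctsk at 8.32 ± 1.41 TPM and Ctsc at 6.95 ± 1.45 TPM were lowest and overlapped.

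In GFAP-IL6 the order changed at several places. Ctsd stayed first with 617 ± 50.0 TPM. Ctss, at 458 ± 28.4 TPM, lay above Ctsb at 406 ± 13.01 TPM in every library, whereas in WT every library had Ctss far below Ctsb. This order depends on the gene lengths used, as Ctsb had the higher CPM in every library. Ctsl followed with 149 ± 4.77 TPM, then Ctsz at 103 ± 15.8 TPM and Ctsa at 99.5 ± 2.07 TPM, which overlapped. Ctsf had 78.7 ± 1.76 TPM, Ctsh 48.8 ± 5.24 TPM and Ctsc 20.0 ± 1.76 TPM, and Ctsk was last with 6.76 ± 0.554 TPM.

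**Figure D2:**
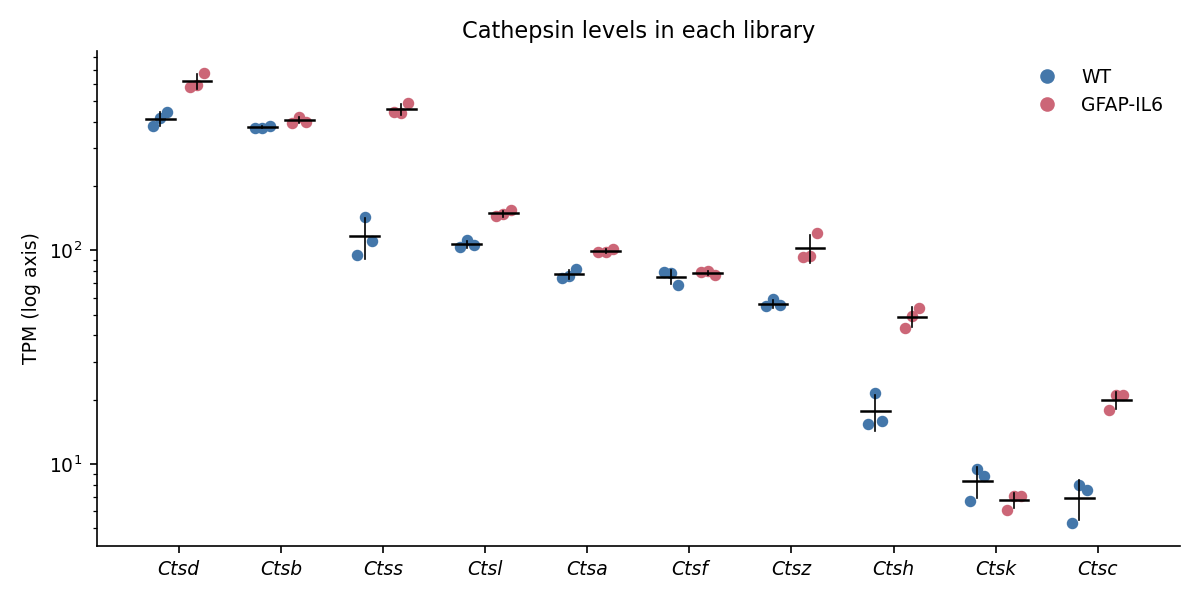
TPM of each cathepsin in each library (points; vertical axis on a log scale), with the mean (horizontal bar) and SD (vertical line) of 3 libraries a group, ordered by the WT mean. The points of Ctss move from about the level of Ctsl in WT (116 against 107 TPM) to above Ctsb in GFAP-IL6 (458 against 406 TPM).

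The summed level of the 10 cathepsins was 1189, 1296 and 1283 TPM in WT and 1904, 1956 and 2102 TPM in GFAP-IL6. Every GFAP-IL6 library was higher, and the mean went from 1256 ± 58.2 to 1987 ± 103 TPM (SD, n = 3 each), a ratio of 1.58 (exact two-sided permutation p = 0.1, the smallest that 3 against 3 libraries allow). In CPM, where long genes weigh more, the ratio of the sums was 1.31. The ratio of the summed TPM was 1.34 without Ctss and 1.63 without Ctsd. The 8 cysteine cathepsins alone gave a ratio of 1.66.

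The make-up of the cathepsin transcripts follows from the levels above and is not a separate result. Ctss made up 7.96%, 11.1% and 8.63% of the summed TPM in the WT libraries and 23.3%, 22.5% and 23.4% in the GFAP-IL6 libraries. Its mean share was higher by 13.8 percentage points, from 9.23 ± 1.65% to 23.1 ± 0.496% (SD, n = 3 each). Ctsb made up 31.5%, 28.9% and 29.8% in WT and 20.8%, 21.5% and 19.1% in GFAP-IL6, so its share was lower in every GFAP-IL6 library although its CPM overlapped. Ctsd held 32.95 ± 1.57% and 31.0 ± 0.914%, and its libraries overlapped. The mean shares of Ctsh, Ctsc and Ctsz went from 1.40% to 2.45%, from 0.550% to 1.004% and from 4.49% to 5.16%, with all GFAP-IL6 libraries higher.

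In all, the share was higher in every GFAP-IL6 library for 4 cathepsins, Ctss, Ctsh, Ctsc and Ctsz, and lower for 5, Ctsb, Ctsl, Ctsa, Ctsf and Ctsk. Each of these 9 differences had an exact two-sided permutation p of 0.1 and an adjusted p of 0.111 over the 10 genes, so none could pass 0.05 in this design. For Ctsl the lower share, 7.49% against 8.50%, held with TPM only, as with CPM its share was 0.0798 percentage points higher and the groups overlapped. A lower share in a larger sum is not a lower level, since Ctsl and Ctsa had higher CPM in every GFAP-IL6 library.

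**Figure D3:**
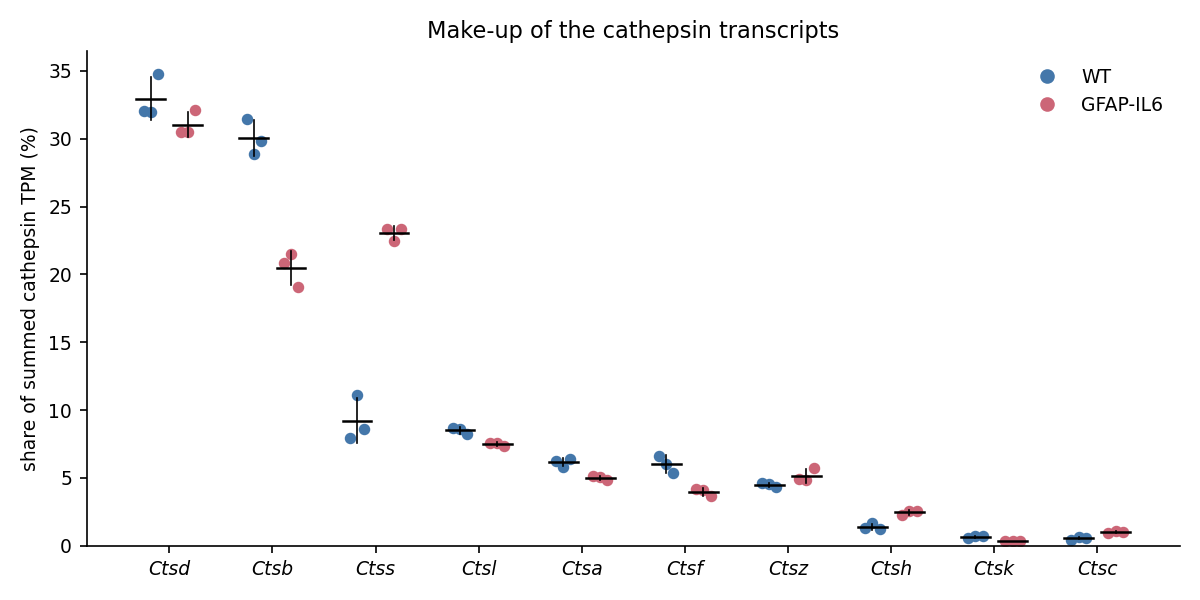
Share of each cathepsin in the summed TPM of the 10 genes, in percent, for each library (points), with the mean (horizontal bar) and SD (vertical line) of 3 libraries a group. Ctss lies near 9.23% in WT and 23.1% in GFAP-IL6, and Ctsb near 30.1% and 20.5%.

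Markers of microglia moved with these genes. Of 10 microglia markers, 6 rose and 0 fell (edgeR), with a median log2 fold change of 0.72, and none was at 0 in any group. Itgam rose by 2.03, Aif1 by 0.90, Csf1r by 0.87, Tmem119 and Fcrls by 0.81 and Cx3cr1 by 0.63 on the log2 scale, whereas P2ry12 and Gpr34 had values of -0.27 and -0.22 that did not pass. The summed level of the 10 markers lay between 314 and 382 CPM in WT and between 558 and 670 CPM in GFAP-IL6. Their geometric mean was 22.9, 29.99 and 27.5 CPM in the WT libraries and 40.3, 38.4 and 46.4 CPM in the GFAP-IL6 libraries, a ratio of 1.56 (exact two-sided permutation p = 0.1). In whole tissue, more cells of a type and more RNA per cell cannot be told apart, and the part of either in the cathepsin differences was not tested.

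Each cathepsin was also set against the geometric mean of the microglia markers in its own library. Relative to this mean Ctss was higher, with log2 ratios of 0.98, 1.27 and 0.97 in WT and 2.34, 2.42 and 2.30 in GFAP-IL6, a difference of 1.28. This holds for the mean and not for every marker. The marker Itgam itself had a log2 fold change of 2.03, against 1.90 for Ctss, whereas the other markers named above had lower values than Ctss. Ctsc and Ctsh were also higher in every GFAP-IL6 library, by 0.83 and 0.77 on the log2 scale. Ctsz at 0.14 and Ctsd at -0.14 overlapped between the groups. Ctsl, Ctsa, Ctsb, Ctsf and Ctsk were lower per marker level in every GFAP-IL6 library, with log2 differences of -0.23, -0.35, -0.61, -0.65 and -1.004. The marker mean itself was 1.56-fold higher in GFAP-IL6, so a gene of unchanged CPM is lower by this measure. The share of all genes without overlap after the same division was not computed. The 8 differences without overlap had an exact two-sided permutation p of 0.1 each and 0.125 after adjustment over the 10 genes. With Cx3cr1, Tmem119 and Csf1r alone as the markers, 3 cathepsins were higher and 6 lower. With a library left out and all 10 markers, between 3 and 4 cathepsins were higher, 4 being without WT replicate 1 or GFAP-IL6 replicate 1, and between 5 and 6 were lower.

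**Figure D4:**
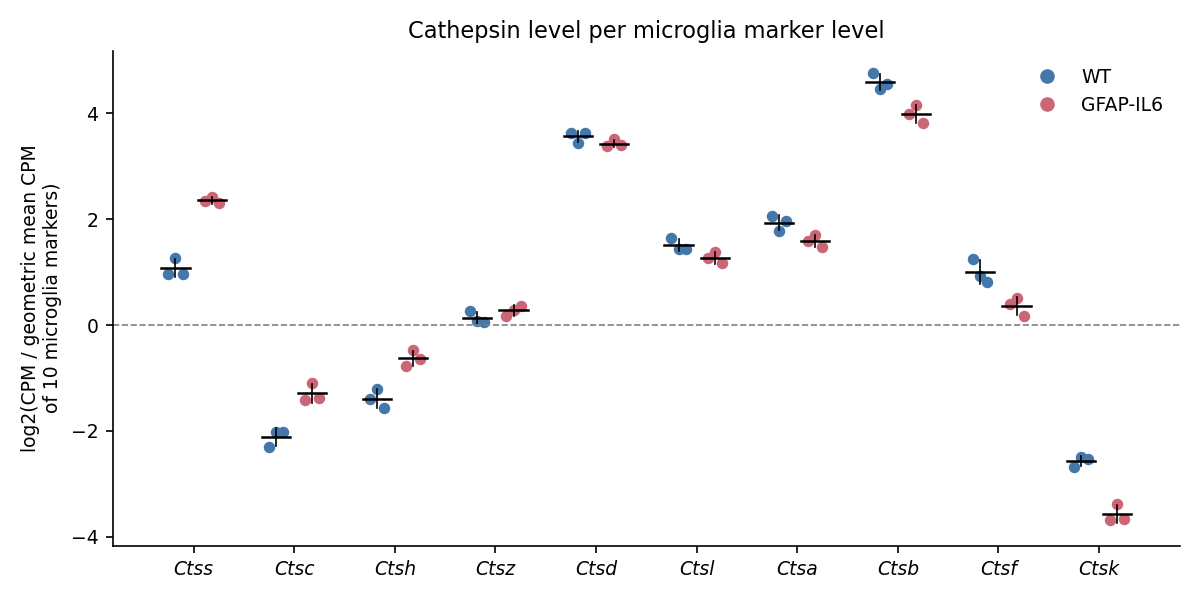
Log2 ratio of the CPM of each cathepsin to the geometric mean CPM of 10 microglia markers in the same library (points), with the mean (horizontal bar) and SD (vertical line) of 3 libraries a group, ordered by the difference. Ctss, Ctsc and Ctsh lie higher in GFAP-IL6, by 1.28, 0.83 and 0.77, Ctsz and Ctsd overlap, and the other genes lie lower.

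Other cell type lists bear on the same comparison. Of 6 perivascular macrophage markers, 4 were tested and 0 passed in either direction (edgeR; 0 at an unadjusted p under 0.05), with summed levels of 7.71 to 13.5 CPM in WT and 9.58 to 16.3 CPM in GFAP-IL6. Of 9 infiltrating leukocyte markers none passed the filter on low counts, Cd3d was at 0 in all libraries, and the summed level was 0.174 to 1.19 CPM in WT and 0.923 to 2.79 CPM in GFAP-IL6. Of 6 endothelial markers, 3 rose, Cldn5, Flt1 and Pecam1, with summed levels of 111 to 133 CPM in WT and 184 to 217 CPM in GFAP-IL6. Of 8 astrocyte markers 1 rose in edgeR, Gfap, by 2.84 on the log2 scale, and 2 passed in 5 of the 15 alternative fits, among them DESeq2 and the fit without WT replicate 2. Of 8 neuron markers 0 passed in either direction (edgeR) and 1 was fitted above 0. Their summed level was 8906 to 9304 CPM in WT and 7953 to 8844 CPM in GFAP-IL6. Of 4 cortical neuron markers 0 passed and 3 were fitted above 0. Of 6 oligodendrocyte markers 0 passed and 0 were fitted above 0. Their summed level was 3221 to 5932 CPM in WT and 3242 to 5061 CPM in GFAP-IL6. The part of these cells in the cathepsin differences was not tested.

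The genes most like each cathepsin were found among 10365 genes with a mean of at least 10 CPM, by the root mean square difference of their centred log2 CPM over the 6 libraries. For Ctss these were Ly86, Lyz2 and Itgam, with differences of 0.111, 0.132 and 0.158. For Ctsh they were Mpeg1, Olfml3 and C1qb at 0.098, 0.115 and 0.125, and for Ctsc they were C1qa, Ctsh itself and Capn3 at 0.142, 0.143 and 0.150. Ctsz was followed most closely by Tmem119 at 0.0293, then by Msn and Stat3. Ctsd was nearest to Ptbp1, Dgka and Apeh, Ctsl to Irf5, Pld1 and 0610030E20Rik, and Ctsa to Mfap3, Mtmr11 and Edem1. Ctsb was nearest to Dnlz, Me2 and Ypel3, Ctsf to Eepd1, Gpc6 and Lonp2, and Ctsk to 1110059E24Rik, Rcn2 and Rdh14. The measure follows the shape over libraries, so genes with no difference between groups resemble each other by it.

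Among 13 other cathepsin genes, only Ctso, a cysteine cathepsin, was expressed at a level that could be tested. It had 31.0, 42.2 and 41.1 CPM in WT and 30.5, 35.6 and 39.3 CPM in GFAP-IL6, with a log2 fold change of -0.13 ± 0.13 (edgeR adjusted p = 0.604). Ctsw, a cathepsin of cytotoxic lymphocytes, had between 2 and 7 counts in each library, Ctse had at most 2, and 10 had 0 counts in all libraries.

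Of 14 inhibitor genes, 9 were tested, 3 rose and 0 fell, with a median log2 fold change of -0.10 that does not depend on the value taken for Cst7, the highest. Cst7, which encodes cystatin F and inhibits Ctsc among others, was counted 1, 2 and 1 times in WT and 18, 22 and 22 times in GFAP-IL6. This was at least 11.1-fold higher, computed against 3 counts per WT library (edgeR adjusted p = 0.000169). Serpina3n, a serine protease inhibitor, went from 11.8 ± 1.65 to 31.9 ± 9.88 CPM (SD, n = 3 each), a log2 fold change of 1.43 ± 0.20 (edgeR adjusted p = 0.00123). Ctla2a, an inhibitor of cathepsin L-like enzymes, rose by 0.93 ± 0.21 on the log2 scale (edgeR adjusted p = 0.0320), and this call was lost without WT replicate 3 and without GFAP-IL6 replicates 2 or 3 (adjusted p = 0.0791, 0.0777 and 0.208).

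Cst3, which encodes cystatin C, the most abundant inhibitor in these libraries, had 832 ± 110 CPM in WT and 776 ± 93.1 CPM in GFAP-IL6, and the groups overlapped (edgeR adjusted p = 0.639). Cstb, which encodes the intracellular inhibitor cystatin B, had 16.4 ± 3.06 and 12.1 ± 0.835 CPM (SD, n = 3 each), with all GFAP-IL6 libraries below all WT libraries and an edgeR adjusted p of 0.119. Set against the summed TPM of the 8 cysteine cathepsins, the TPM of Cst3 was 3.21, 3.57 and 3.73 times the sum in the WT libraries and 1.93, 2.05 and 2.23 times in the GFAP-IL6 libraries. The ratio for Cstb was 0.0991 ± 0.0105 in WT and 0.0464 ± 0.0045 in GFAP-IL6. Both ratios were lower in every GFAP-IL6 library (exact two-sided permutation p = 0.1 each). Their divisor was 1.66-fold higher in GFAP-IL6, so the ratio falls for an inhibitor of unchanged level and is not a separate result.

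Of 9 genes for maturation and delivery, 2 rose and 0 fell, with a median log2 fold change of 0.11. Grn, which encodes progranulin, a partner of cathepsin D maturation, rose by 0.72 ± 0.09 on the log2 scale (edgeR adjusted p = 0.000457). Lgmn, which encodes legumain, the asparaginyl endopeptidase that processes several cathepsins, rose by 0.47 ± 0.08 (edgeR adjusted p = 0.00678), and this was lost without GFAP-IL6 replicate 3 (adjusted p = 0.0602). The sorting receptor M6pr had a log2 fold change of -0.10 (edgeR adjusted p = 0.567).

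Other lysosomal genes were described by 3 lists, whose difference from the cathepsins was not tested. Of 6 other lysosomal peptidases, 0 passed in either direction (edgeR; 0 at an unadjusted p under 0.05), with a median log2 fold change of 0.15. Tpp1 and Dpp7, the most abundant of them, had log2 fold changes of 0.12 and 0.03. Of 28 other hydrolases and their activators, 2 rose and 0 fell, with a median of 0.14. Among them the lysosomal mannosidase Man2b1 was higher by 0.62 ± 0.09 on the log2 scale (edgeR adjusted p = 0.00115). Of 19 tested genes for the lysosomal membrane and acidification, 2 rose and 0 fell, with a median of -0.05. These were the macrophage-rich Laptm5, higher by 1.17 ± 0.09 (edgeR adjusted p = 1.17e-05), and Cd68, higher by 0.91 ± 0.19 (edgeR adjusted p = 0.0246), whose call was lost without GFAP-IL6 replicates 1 or 3 (adjusted p = 0.134 and 0.177).

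Antigen presentation by MHC class II, in which Ctss acts, was represented by 7 genes, of which 4 rose and 0 fell, with a median log2 fold change of 1.35. Ifi30, a lysosomal thiol reductase, went from 2.06 ± 0.289 to 9.09 ± 1.75 CPM, a log2 fold change of 2.14 ± 0.21 (edgeR adjusted p = 8.99e-05). Cd74, the invariant chain that Ctss cleaves, was counted 35, 69 and 25 times in WT and 74, 55 and 76 times in GFAP-IL6, with a log2 fold change of 1.35 ± 0.28 (edgeR adjusted p = 0.0202). H2-Ab1 and H2-Eb1 rose by 1.72 and 1.46 on the log2 scale (edgeR adjusted p = 0.0108 and 0.0221). The calls of Cd74, H2-Ab1 and H2-Eb1 were lost without GFAP-IL6 replicate 3 (adjusted p = 0.154, 0.0912 and 0.127), those of Cd74 and H2-Eb1 also without replicate 1 (0.0503 and 0.0975) or 2 (0.0695 and 0.0649), and that of H2-Eb1 also without WT replicate 3 (0.0523). Of 7 granule proteases that Ctsc activates, none passed the filter on low counts, and 6 had at most 3 counts in every library. The exception, Prtn3, was counted 9, 17 and 13 times in WT and 4, 4 and 7 times in GFAP-IL6. These are raw counts, and every GFAP-IL6 library was shallower than every WT library, so part of the gap reflects depth.

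**Figure D5:**
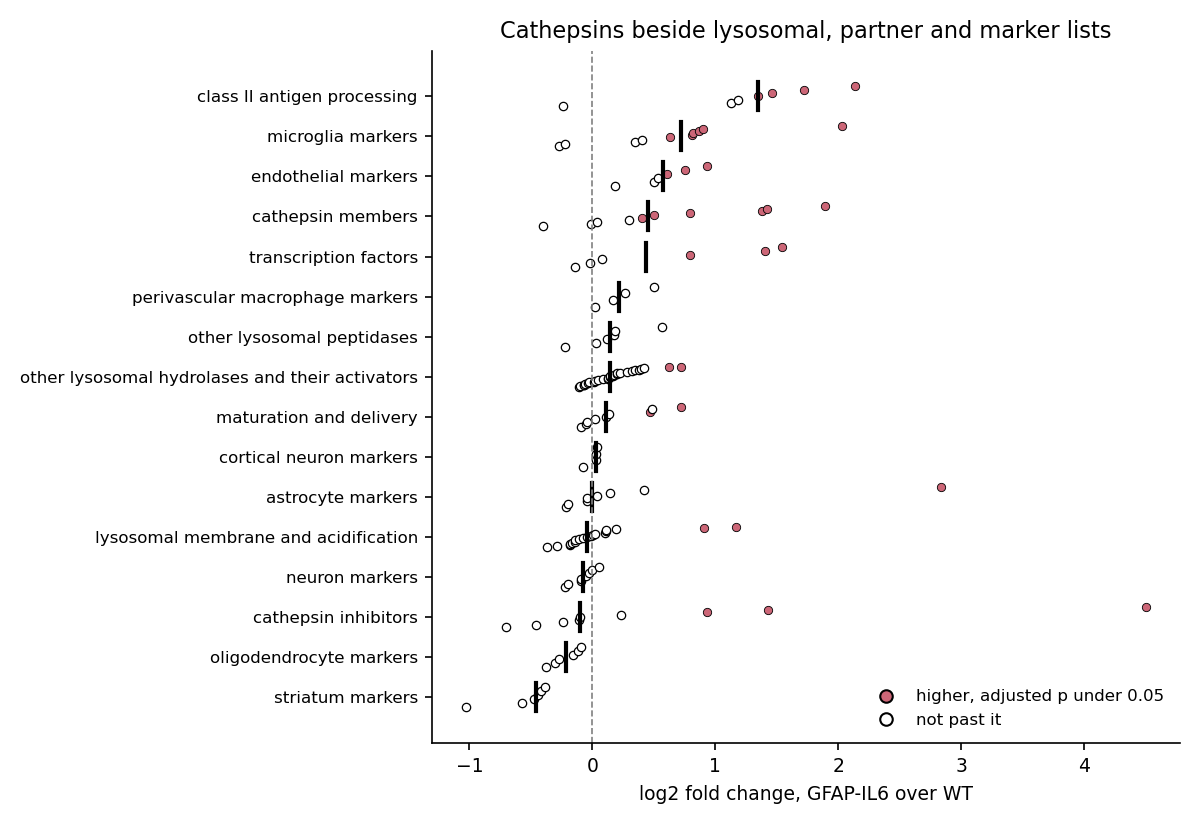
Log2 fold change of GFAP-IL6 over WT (edgeR) for each tested gene (points) of the cathepsins and of lists with at least 3 tested genes other than choroid plexus markers, with the list median (black bar) and the median of all genes tested (dashed line). Filled points passed an adjusted p of 0.05 and all of them are higher. The median was 0.45 for the cathepsins, 0.14 for the other hydrolases, 0.72 for microglia markers and 1.35 for class II antigen processing.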

How the data were processed

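Frontal cortex of 3 WT and 3 GFAP-IL6 mice was profiled with TruSeq mRNA libraries. The deposited values were raw counts per gene. According to the methods and processing notes, the authors aligned reads to mm10 with STAR 2.4 and counted uniquely aligned reads per GENCODE gene with featureCounts, and applied no normalization. The deposited table also gave gene lengths, used here for TPM.

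Groups came from the sample titles. Counts were tested with edgeR 4.0.16 (R 4.3.3; quasi-likelihood, TMM, filterByExpr, no covariate). DESeq2 1.42.0, the authors' tool, limma-voom (limma 3.58.1), other scalings and filters, thinning, a replicate block and leaving out each library were alternatives. On simulated counts of 15357 genes, edgeR recovered 40.3%, 82.1% and 100% of genes changed 1.5-, 2- and 4-fold, and 2% of calls were false. The simulation gave all genes the same spread between libraries, not the spread estimated from the real counts. These rates therefore need not hold for the real libraries. Floors of 3 counts cover counting error only, since reads carried no molecular identifiers. The counts of every pair of libraries differed by more than sampling noise (chi-square per degree of freedom of at least 2.23). The cathepsins and the gene lists were chosen with earlier results of these data known. All cathepsins were named. Of the other lists, genes past the threshold were named, up to the 6 with the smallest adjusted p, otherwise the 2 with the highest TPM, except for a gene that is not reported here, and partners such as Cst3, Cstb, M6pr, Tfeb, Tfe3 and Mitf were added after their values were seen. The sums without Ctss and of the cysteine class, the inhibitor ratios and the motif searches were also chosen after seeing the data.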

Additional observations from a re-analysis of the deposited data

How the results depend on the processing

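Over 15 alternative fits, Ctss, Ctsc, Ctsh and Ctsz kept their direction and their call, with log2 fold changes of 1.57 to 2.10, 0.97 to 1.54, 1.01 to 1.58 and 0.65 to 0.87, whereas Ctsd kept its call in 14 and Ctsl in 11. With a log2 fold change over 1 also required, the number of cathepsins higher was 3, or 2 with DESeq2 and its prior. Without that requirement it was between 4 and 6 when a library was left out, 4 being without GFAP-IL6 replicate 3. Of the lysosomal and partner genes, 0 were lower in the main fit, 1 with DESeq2, 1 with DESeq2 and its prior, 3 without the low-count filter and between 0 and 2 with a library left out, while 16 were higher and between 10 and 19 with a library left out, 10 being without GFAP-IL6 replicate 3. The cause was not tested. Ctsf, near 0 throughout, had 0.0389 after thinning and between -0.0734 and 0.0470 with a library left out, and Dpp7 between -0.0430 and 0.0680. With CPM in place of TPM, the share of Ctsd was higher by 2.05 and that of Ctsl by 0.0798 percentage points.

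Replicate numbers were not treated as pairs in the main fit. Deviations of same-numbered libraries correlated at 0.0996, 0.0147 and 0.0211, and those of differently numbered ones at -0.0770 to 0.0524. Not every library correlated best with its own number, and correlations this weak cannot settle whether the numbers mark a pairing. With the replicate block 7 cathepsins were higher, as Ctsa passed (edgeR adjusted p = 0.0484), and the other calls of the cathepsins did not change. Over all genes the block gave 594 higher and 156 lower, against 407 and 32. Without the low-count filter, 801 genes were higher and 353 lower. DESeq2 gave 98 lower and DESeq2 with its prior 101. With a library left out, between 186 (without GFAP-IL6 replicate 3) and 692 (without WT replicate 1) were higher and between 1 and 369 lower, in the same order.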
